A study of Mus musculus with 24 samples.

Results

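The genes of cholesterol synthesis, fatty acid synthesis and sterol regulation were followed in cultured mouse collecting duct cells with and without the zinc receptor gene Gpr39. The set was a list of 33 genes: the enzymes that lead from acetyl-CoA to cholesterol, the proteins that sense sterols and switch these enzymes on, sterol carriers, and enzymes of fatty acid synthesis. Of these, 29 had a row of their own among the 12224 rows of the deposited table, and all 29 passed the filter on low values. Acat2 was measured only in a row joined with Acat3, and Tm7sf2 only in a row joined with Vps51 and Pola2. Abca1 and Abcg1 were not analysed here.

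The cells were mpkCCD, a mouse kidney epithelial line with features of principal cells of the cortical collecting duct, either WT or with a knockout of Gpr39 (KO). Both lines were grown for 9 days on permeable inserts without dDAVP, a vasopressin analogue, and then kept for 24 h in simple media. The agonist groups received 1 µM cpd1324, a small-molecule agonist of the receptor, on the basolateral side for 2 h, and the vehicle groups received 0.1% DMSO. Zinc chloride at 10 µM was present in all 4 groups, so no group shows the cells without added zinc. Each group held 6 libraries. How the knockout was made, whether it is 1 clone, and whether the 6 libraries came from separate cultures are not given in the sources used here, so p-values measure only the spread between these libraries, which may be technical.

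Poly(A) RNA was sequenced to between 29.8 and 51.9 M recovered reads per library. Levels are given in scaled units, which are the deposited length-normalized values times 1 constant. Comparing levels of different genes rests on the deposited gene lengths, from 1158 bases for Pmvk to 10412 for Fasn among the members. How these lengths were set is not given in the sources used here. Gpr39 was lower in every KO library (8.20 to 10.6 scaled units) than in every WT library (20.3 to 31.1), and the principal cell water channel Aqp2 was measured in all groups, at 9.16 to 22.6 in WT and 49.4 to 107 in KO libraries. The summed level of 10 principal cell markers was 774 to 981 in WT and 1073 to 1219 in KO cells under vehicle, without overlap, and 650 to 814 and 851 to 1195 with agonist. Only part of the listed markers of other cell types was in the table. For intercalated cells 3 of 5 genes summed to 36.8 to 66.9. Csf1r, 1 of 6 immune and endothelial markers, lay at 22.2 to 41.2. In both WT groups this sum and Csf1r were above Aqp2. Lrp2, 1 of 4 proximal tubule markers, lay at 4.49 to 16.4, and Col1a1, 1 of 6 fibroblast markers, at or below 3.27. Slc12a3, 1 of 3 markers of thick limb and distal tubule, was at 0.20 to 0.74 in WT and 4.11 to 7.75 in KO libraries. The sum of 3 epithelial markers was 7755 to 10240 in WT cells with agonist and 3201 to 3988 in the other 3 groups. The part of these shifts in the results below was not tested. KO vehicle library 6 stood apart from its group, with an SD of log2 differences from the other 5 of 0.394, against 0.137 to 0.210 for the other libraries.

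Cells make cholesterol from acetyl-CoA through mevalonate, isoprenoid units, squalene and lanosterol. When membrane sterol is low, the precursor proteins of the SREBP transcription factors, held in the endoplasmic reticulum by SCAP and the INSIG proteins, are carried to the Golgi, cut, and released to the nucleus, where SREBP-2 acts mainly on sterol genes and SREBP-1 on fatty acid genes. SREBPs bind sterol regulatory elements and work together with the general factors NF-Y and Sp1. In principal cells of the collecting duct, membrane cholesterol is known to influence how AQP2 is held at the cell surface.

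Promoter sequences of 24 of the 29 genes were matched by symbol in RefSeq tables of the assembly GRCm38.p6, as windows of 300 bases from 250 before to 50 after the annotated start. Fdps, Fdft1, Sqle, Stard4 and Scd2 had no entry. Each window was searched on both strands for 5 short motifs, and the shares below are set beside those of the 8769 tested genes with a window. The NF-Y box CCAAT lay in 21 of 24 members' windows and in 43.0% of the genes' windows. The GC box GGGCGG, the letters that Sp1 factors bind, lay in 20 of 24 against 70.7%, and the E-box CACGTG in 5 of 24 against 11.9%. The classical sterol regulatory element was found in 0 of 24 members and in 0.057% of genes, and a shorter core of it, TCACNCCAC, in 1 of 24 against 1.40%. The one member was Hmgcs1. These matches are descriptions of letters and say nothing of binding.

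The bases just upstream of the start are shown for 8 members: 6 sterol enzymes and Insig1, whose responses to the agonist differed between the lines under the deposited factors, and Fasn, whose response was called in both. With equal totals the differences of Hmgcs1, Insig1 and Cyp51 were not called, nor were those of Hmgcs1 and Insig1 with quantile scaling. Each sequence is written 5′ to 3′ toward its gene, with matches to these motifs in capitals, on either strand, so that an NF-Y box on the other strand reads ATTGG. The bases belong to the GRCm38.p6 assembly.
Hmgcs1 (chr13:119690151-119690350, plus strand): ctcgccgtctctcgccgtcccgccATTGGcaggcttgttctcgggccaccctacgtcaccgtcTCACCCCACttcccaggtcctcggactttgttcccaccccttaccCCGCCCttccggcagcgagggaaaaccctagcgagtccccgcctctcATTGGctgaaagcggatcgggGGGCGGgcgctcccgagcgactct
Idi1 (chr13:8885456-8885605, plus strand): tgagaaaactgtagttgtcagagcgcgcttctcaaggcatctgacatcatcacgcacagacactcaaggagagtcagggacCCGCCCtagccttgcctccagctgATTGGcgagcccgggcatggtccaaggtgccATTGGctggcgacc
Cyp51 (chr5:4104698-4104847, minus strand): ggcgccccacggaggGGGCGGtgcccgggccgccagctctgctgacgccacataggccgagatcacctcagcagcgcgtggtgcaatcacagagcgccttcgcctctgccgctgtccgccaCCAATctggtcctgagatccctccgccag
Msmo1 (chr8:64733579-64733728, minus strand): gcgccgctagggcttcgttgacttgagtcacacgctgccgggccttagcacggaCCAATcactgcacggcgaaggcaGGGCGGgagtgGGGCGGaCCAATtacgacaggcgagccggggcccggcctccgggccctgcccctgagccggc
Hsd17b7 (chr1:169969206-169969355, minus strand): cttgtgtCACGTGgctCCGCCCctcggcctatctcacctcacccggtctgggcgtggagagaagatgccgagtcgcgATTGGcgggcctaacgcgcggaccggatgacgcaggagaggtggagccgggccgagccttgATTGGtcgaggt
Sc5d (chr9:42264301-42264450, minus strand): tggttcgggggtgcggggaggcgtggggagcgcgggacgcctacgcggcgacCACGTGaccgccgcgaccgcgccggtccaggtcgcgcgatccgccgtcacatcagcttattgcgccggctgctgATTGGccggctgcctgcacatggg
Insig1 (chr5:28071262-28071411, plus strand): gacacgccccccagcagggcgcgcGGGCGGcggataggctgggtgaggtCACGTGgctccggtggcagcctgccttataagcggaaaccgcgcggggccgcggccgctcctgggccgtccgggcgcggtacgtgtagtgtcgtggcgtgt
Fasn (chr11:120824548-120824697, minus strand): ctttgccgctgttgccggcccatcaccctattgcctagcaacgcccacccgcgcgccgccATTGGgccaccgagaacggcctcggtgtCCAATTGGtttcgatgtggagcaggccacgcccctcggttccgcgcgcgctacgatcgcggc

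Hmgcs1, with 200 bases shown, is the one promoter here with an exact match to the sterol core, set between a pair of NF-Y boxes. Sites that vary from these letters were not searched for, so any in the other promoters would be missed. In Idi1, Msmo1 and Hsd17b7 there are also paired NF-Y boxes, and Hsd17b7, Sc5d and Insig1 carry an E-box. In Fasn, a forward and a reverse NF-Y box overlap in the run CCAATTGG. Among the 8 members with a window and a positive interaction (defined below), 8 held an NF-Y box, 8 a GC box and 3 an E-box somewhere in the full window. Among the 5 with a window and a negative interaction, 4 held an NF-Y box, 5 a GC box and 2 an E-box, and among the 11 others with a window 9, 7 and 0 did. These are counts of few genes and no difference between them was tested.

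Agonist treatment of WT cells was followed by higher transcript levels of most sterol synthesis genes within 2 h. At an adjusted p below 0.05 (limma over 11557 rows), 20 of the 29 members rose and 2 fell, while 28.6% of all tested rows rose, 28.6% fell and 57.2% were called in either direction. The median change of the members was 0.39 on the log2(scaled units + 0.5) scale, and that of all rows was -0.01. By role, 5 of 6 mevalonate enzymes rose, 9 of 11 enzymes of squalene and the sterol ring rose, 2 of 6 sensors and transcription factors rose and 1 fell, the carrier Stard4 rose, and of 5 fatty acid genes 3 rose and 1 fell. In 13 members, every WT library with agonist was above every WT library with vehicle, and in 1 (Idh1) every one was below; the same held for 19.8% and 17.7% of all rows. Scaling each library to the same total moved the median of all rows to -0.24 and left 13 members higher and 8 lower. Quantile scaling moved that median to -0.06 and gave 16 and 8. The shares of all rows above hold for the deposited factors only. None are given here for the other scalings, so these counts have no background beside them. The members' median minus that of all rows was 0.39 under the deposited factors, 0.39 under equal totals and 0.29 under quantile scaling. In bulk RNA, more cells with a transcript and more of it per cell cannot be told apart. Errors after fold changes are limma's moderated standard errors with 6 libraries per group.

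Among the mevalonate enzymes, Idi1 changed most. It encodes the isomerase that turns isopentenyl diphosphate into its reactive isomer. Its level in WT cells ran from 157 to 198 scaled units (median 171) under vehicle and from 277 to 428 (median 320) with agonist. In KO cells it ran from 80.7 to 107 (median 89.3) and from 90.8 to 129 (median 108). The WT groups did not overlap, the KO groups did, and both KO groups lay below both WT groups. The log2 change was 0.93 ± 0.10 (adjusted p = 1.32e-08, limma) in WT cells and 0.24 ± 0.10 (adjusted p = 0.112) in KO cells. The difference of these changes, called the interaction from here on and written as WT minus KO, was 0.69 ± 0.14 (adjusted p = 0.000282, limma).

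Hmgcs1, the synthase at the entry of the mevalonate steps, ranged from 273 to 342 (median 311) in WT cells under vehicle and from 374 to 517 (median 441) with agonist. In KO cells it ranged from 233 to 257 (median 241) and from 247 to 325 (median 277). Agonist separated the WT groups completely and the KO groups only in part. The change was 0.54 ± 0.07 in WT cells (adjusted p = 1.004e-06, limma), and 0.21 ± 0.07 in KO cells did not pass (adjusted p = 0.0707), but was called with equal totals (adjusted p = 0.0363) and quantile scaling (0.0277). The interaction of Hmgcs1 was 0.33 ± 0.11 (adjusted p = 0.0143, limma) under the deposited factors, 0.05 with equal totals and -0.02 with quantile scaling, neither of which was called. Pmvk, the second kinase of the pathway, rose by 0.47 ± 0.10 in WT cells, with an interaction of 0.32 ± 0.14 that did not pass (adjusted p = 0.0673, limma).

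Mvd and Fdps rose in WT cells by 0.43 ± 0.13 and 0.39 ± 0.10. Mvd makes isopentenyl diphosphate by decarboxylation, and Fdps joins isoprenoid units into farnesyl diphosphate. In KO cells Mvd rose by 0.48 ± 0.13 (adjusted p = 0.0265, limma), with 26.2 to 29.9 scaled units (median 27.6) under vehicle and 29.8 to 49.8 (median 39.9) with agonist. The Fdps change in KO cells, 0.30 ± 0.10, did not pass (adjusted p = 0.0605, limma), but was called with equal totals (adjusted p = 0.0434) and quantile scaling (0.0322). For neither gene was a difference between the lines detectable, with 95% intervals of the interaction from -0.43 to 0.32 for Mvd and from -0.21 to 0.39 for Fdps. Mvk, mevalonate kinase, was the one mevalonate enzyme not called in WT cells, at 0.07 ± 0.12. In KO cells its 0.36 ± 0.12 did not pass (adjusted p = 0.0506, limma), but was called with equal totals (0.39) and quantile scaling (0.35), and its interaction was called with equal totals (-0.56). With equal totals, the WT changes of Mvd (0.19) and Fdps (0.15) no longer passed. With quantile scaling that of Mvd (0.37) was called and that of Fdps (0.06) was not.

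The largest response among the members was that of Hsd17b7, a 3-keto-sterol reductase of the post-lanosterol steps. It ranged from 27.0 to 32.3 scaled units (median 29.9) in WT cells under vehicle and from 55.9 to 77.1 (median 68.1) with agonist. In KO cells it ranged from 19.3 to 25.3 (median 22.0) and from 20.9 to 25.6 (median 23.5). Its mean in WT cells was 2.22 times higher with agonist, and in KO cells the groups overlapped throughout. The KO change was 0.06 ± 0.07 and the interaction 1.07 ± 0.10 (adjusted p = 4.99e-09, limma).

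Msmo1 and Sc5d likewise rose in WT cells and were not called in KO cells. Msmo1, the sterol C4-methyl oxidase, lay at 302 to 377 scaled units (median 327) in WT cells under vehicle and at 481 to 725 (median 597) with agonist. In KO cells it lay at 286 to 347 (median 318) and 294 to 356 (median 325), overlapping the WT vehicle range in both cases. The interaction of Msmo1 was 0.80 ± 0.11 (adjusted p = 1.004e-06, limma). Sc5d, the sterol C5-desaturase, lay at 79.5 to 83.9 (median 80.8) and 116 to 160 (median 137) in WT cells, and at 64.5 to 89.9 (median 67.8) and 63.9 to 76.1 (median 72.2) in KO cells. The highest KO value of Sc5d under vehicle, 89.9, belonged to library 6, and the other 5 KO vehicle libraries were below every WT library. The interaction of Sc5d was 0.74 ± 0.10 (adjusted p = 1.47e-06, limma).

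Sqle, Fdft1 and Cyp51 catalyse the squalene steps and the first demethylation of lanosterol. Sqle, squalene epoxidase, ranged from 142 to 173 (median 158) and from 214 to 277 (median 242) in WT cells, and from 111 to 122 (median 117) and 108 to 136 (median 121) in KO cells. The WT groups were apart, and the KO agonist libraries lay around the KO vehicle range, with an interaction of 0.57 ± 0.09 (adjusted p = 1.67e-05, limma). Fdft1, squalene synthase, ranged from 31.1 to 39.5 (median 36.2) and from 46.3 to 64.3 (median 54.4) in WT cells, and from 20.9 to 27.5 (median 25.0) and 23.7 to 32.0 (median 26.5) in KO cells. Its interaction was 0.47 ± 0.12 (adjusted p = 0.00303, limma), and 0.20 with equal totals, where it was not called. Cyp51, the lanosterol demethylase, ranged from 63.0 to 72.4 (median 67.6) and from 93.9 to 134 (median 108) in WT cells, and from 45.9 to 51.7 (median 49.3) and 49.0 to 69.9 (median 58.2) in KO cells. In KO cells Cyp51 changed by 0.25 ± 0.08, short of the threshold (adjusted p = 0.0563, limma; called at 0.0346 with equal totals and 0.0389 with quantile scaling). Its interaction was 0.48 ± 0.12 (adjusted p = 0.00194), or 0.20 and not called with equal totals.

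**Figure D1:**
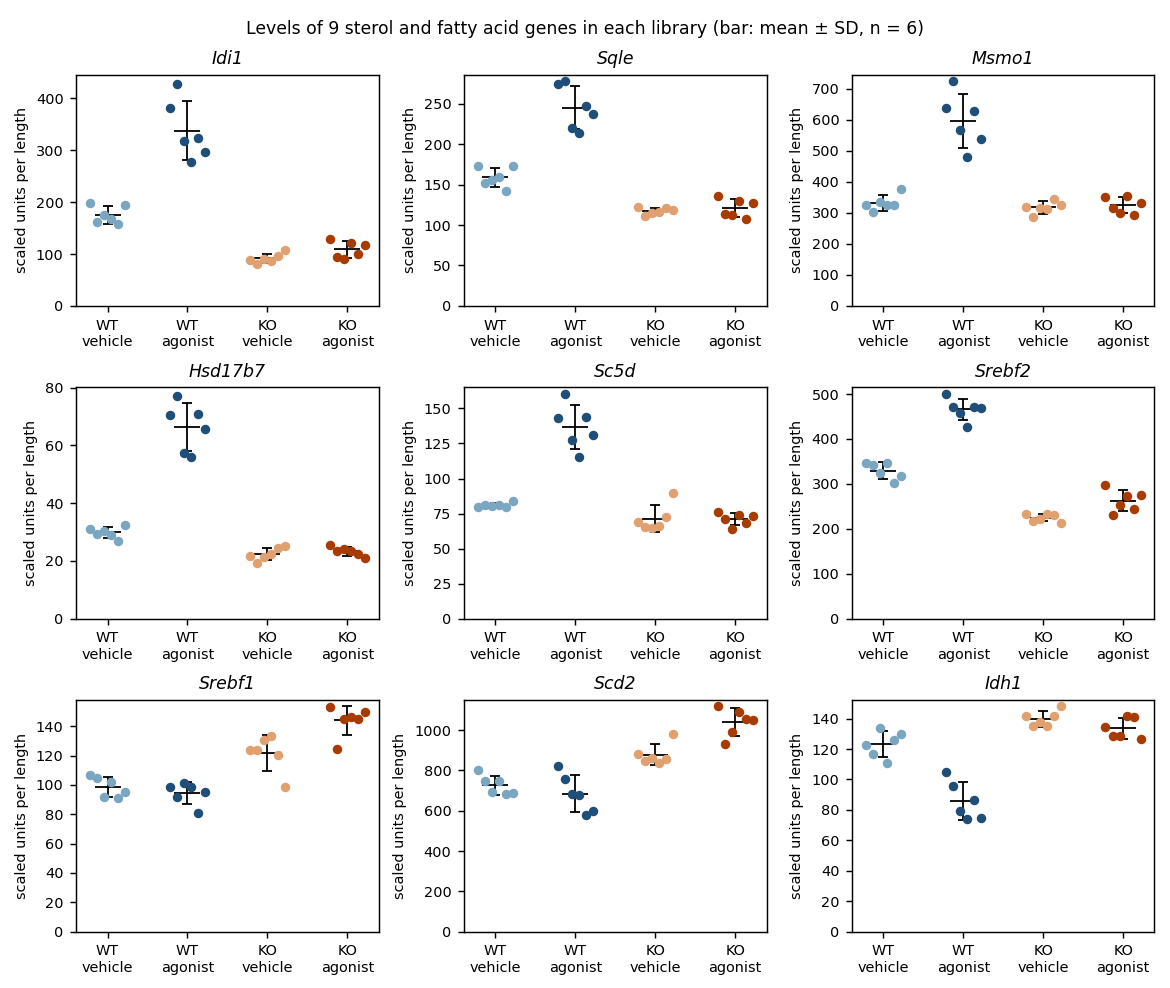
Levels of 9 genes in each of the 24 libraries, in scaled units, which are already length-normalized, on linear axes from 0. Points are libraries and bars are the mean ± SD of 6. For Idi1, Sqle, Msmo1, Hsd17b7, Sc5d and Srebf2 the WT agonist libraries lie above all others, while the means of Srebf1 and Scd2 are highest in KO cells with agonist and Idh1 is lowest in WT cells with agonist.

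For the other sterol ring enzymes no larger response in WT cells was detected. Lss, lanosterol synthase, rose by 0.34 ± 0.11 in WT cells and 0.37 ± 0.11 in KO cells, and Lbr, which has sterol reductase activity, by 0.33 ± 0.06 and 0.24 ± 0.06. Nsdhl, the C4 decarboxylase, rose by 0.29 ± 0.09 in WT cells (adjusted p = 0.0099, limma) and not past the threshold in KO cells (0.21 ± 0.09, adjusted p = 0.152). The 95% intervals of the interaction were -0.36 to 0.31 for Lss, -0.09 to 0.28 for Lbr and -0.19 to 0.36 for Nsdhl, so differences of these sizes were not resolved. With equal totals the WT changes of Lss (0.10), Lbr (0.09) and Nsdhl (0.05) did not pass. With quantile scaling that of Lbr (0.24) was called, and those of Lss (0.22) and Nsdhl (0.17) were not.

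Ebp and Dhcr7, which act at the end of the pathway as sterol isomerase and 7-dehydrocholesterol reductase, had negative interactions. Dhcr7 ranged from 26.0 to 38.7 (median 29.7) and from 21.2 to 32.6 (median 25.1) in WT cells, and from 30.8 to 41.7 (median 34.7) and 37.3 to 47.0 (median 43.4) in KO cells. Neither change was called alone, at -0.21 ± 0.10 in WT and 0.27 ± 0.10 in KO cells, and the interaction was -0.48 ± 0.14 (adjusted p = 0.00582, limma). In WT cells Dhcr7 and Ebp were called lower with equal totals (-0.45 and -0.31) and with quantile scaling (-0.22 and -0.18). Ebp ranged from 67.1 to 83.6 (median 75.8) and from 62.1 to 78.3 (median 73.1) in WT cells, and from 62.7 to 76.4 (median 71.4) and 75.4 to 84.0 (median 77.8) in KO cells. All groups of Ebp overlapped with a neighbour, and its interaction of -0.21 ± 0.08 was close to the threshold (adjusted p = 0.0399, limma; 0.0171 to 0.0786 when single libraries were left out).

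The regulators split. Srebf2, which encodes SREBP-2, rose in both lines, and rose more in WT cells under the deposited factors. It ranged from 301 to 346 (median 333) and from 427 to 500 (median 470) in WT cells, and from 214 to 233 (median 227) and 231 to 297 (median 264) in KO cells. Every KO library was below every WT library, whatever the treatment. The change was 0.50 ± 0.05 in WT cells (adjusted p = 9.16e-09, limma) and 0.22 ± 0.05 in KO cells (adjusted p = 0.018). The Srebf2 interaction of 0.28 ± 0.07 (adjusted p = 0.00317, limma) became 0.01 with equal totals and -0.07 with quantile scaling, neither called, so the difference in response rests on the factors between libraries.

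Srebf1, which encodes SREBP-1, moved otherwise. It ranged from 90.8 to 107 (median 98.4) and from 80.7 to 101 (median 96.9) in WT cells, and from 98.7 to 134 (median 124) and 125 to 153 (median 146) in KO cells. The WT groups overlapped broadly, and every KO library with agonist was above every WT library. Srebf1 rose by 0.25 ± 0.07 in KO cells (adjusted p = 0.0275, limma) and stood at -0.06 ± 0.07 in WT cells, with an interaction of -0.31 ± 0.09 (adjusted p = 0.0111). Its WT value was called lower with equal totals (-0.30) and quantile scaling (-0.22), where the interaction was -0.58 and -0.50.

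Insig1, a retention protein of the SREBP complex that is itself an SREBP target, ranged from 183 to 226 (median 209) and from 285 to 429 (median 334) in WT cells, and from 145 to 165 (median 153) and 149 to 231 (median 179) in KO cells. Every WT library with agonist was above all the others, and the KO agonist range reached just past that of WT vehicle. Insig1 rose by 0.74 ± 0.09 in WT cells (adjusted p = 2.29e-07, limma), and the KO change of 0.28 ± 0.09 did not pass (adjusted p = 0.0588), but was called with equal totals (adjusted p = 0.0355) and quantile scaling (0.0261). The interaction was 0.46 ± 0.13 (adjusted p = 0.00628, limma), but 0.18 with equal totals and 0.17 with quantile scaling, where it was not called. Insig2, its paralogue, fell by 0.16 ± 0.06 in WT cells (adjusted p = 0.0323, limma) and stood at -0.05 ± 0.06 in KO cells. Its interaction was called with equal totals alone (-0.38).

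Scap, the escort of the SREBP precursors, ranged from 75.1 to 84.5 (median 81.3) and from 72.5 to 84.4 (median 77.2) in WT cells, and from 57.8 to 76.6 (median 74.2) and 77.6 to 81.1 (median 79.5) in KO cells. The KO groups did not overlap, although the KO change of 0.15 ± 0.05 did not pass (adjusted p = 0.0813, limma). Its interaction was -0.19 ± 0.08 (adjusted p = 0.0448, limma; 0.0282 to 0.0821 when single libraries were left out). In WT cells Scap, at -0.05 ± 0.05, was called lower with equal totals (-0.29) and quantile scaling (-0.17). Nr1h2, which encodes the oxysterol receptor LXR-beta, was not called in either line, at -0.09 ± 0.05 in WT cells, with an interaction between -0.22 and 0.05 (95% interval) under the deposited factors. Equal totals and quantile scaling called it lower in WT cells (-0.33 and -0.30) with a negative interaction (-0.36 and -0.32), outside that interval.

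Stard4, a soluble sterol carrier, ranged from 59.2 to 70.7 (median 64.4) and from 79.5 to 100 (median 85.3) in WT cells, and from 45.2 to 53.5 (median 49.2) and 52.9 to 65.0 (median 55.9) in KO cells. It rose by 0.44 ± 0.06 in WT cells (adjusted p = 1.01e-06, limma) and by 0.21 ± 0.06 in KO cells (adjusted p = 0.0343). The WT groups were apart, the KO groups nearly so. The interaction of Stard4, 0.23 ± 0.09 (adjusted p = 0.0358, limma; 0.0127 to 0.0715 when single libraries were left out), turned to -0.04 with equal totals and was 0.09 with quantile scaling, neither called.

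The fatty acid genes formed no single pattern. Fasn, fatty acid synthase, ranged from 115 to 151 (median 133) and from 160 to 196 (median 179) in WT cells, and from 106 to 125 (median 118) and 130 to 170 (median 154) in KO cells. Agonist separated the groups in both lines, with changes of 0.44 ± 0.07 in WT (adjusted p = 7.9e-06, limma) and 0.38 ± 0.07 in KO cells (adjusted p = 0.00741). The interaction of Fasn had a 95% interval from -0.14 to 0.26.

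Acaca, acetyl-CoA carboxylase 1, rose by 0.37 ± 0.09 in WT cells (adjusted p = 0.000928, limma) and 0.42 ± 0.09 in KO cells (adjusted p = 0.0108). In KO cells it ranged from 22.7 to 27.2 scaled units (median 24.2) under vehicle and from 27.3 to 37.9 (median 33.2) with agonist, without overlap. Acly, which makes cytosolic acetyl-CoA from citrate, rose by 0.21 ± 0.07 and 0.29 ± 0.07; in WT cells this turned to -0.03 with equal totals and -0.02 with quantile scaling, and was not called there, while its interaction was called (-0.36 in both). With equal totals the WT change of Acaca (0.14) was not called either.

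Scd2, a fatty acid desaturase, had the highest level of the members in these units, at 727 ± 46.8 in WT vehicle (SD, n = 6). Acaca had the lowest, at 24.9 ± 4.10. Scd2 ranged from 686 to 803 (median 720) and from 577 to 822 (median 681) in WT cells, and from 837 to 982 (median 859) and 932 to 1121 (median 1054) in KO cells. It rose in KO cells by 0.24 ± 0.07 (adjusted p = 0.0326, limma) and stood at -0.09 ± 0.07 in WT cells, with an interaction of -0.34 ± 0.10 (adjusted p = 0.00778). The WT value of Scd2 was called lower with equal totals (-0.33) and with quantile scaling (-0.45), and the interaction became -0.61 and -0.76.

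Idh1, the cytosolic isocitrate dehydrogenase that supplies NADPH, moved against the pathway. It ranged from 111 to 134 (median 124) under vehicle and from 74.3 to 105 (median 82.9) with agonist in WT cells, and from 135 to 148 (median 140) and 127 to 142 (median 132) in KO cells. WT libraries with agonist were the lowest of all. Idh1 fell by 0.53 on the log2 scale (± 0.07, adjusted p = 2.37e-07, limma) in WT cells and stood at -0.07 ± 0.07 in KO cells, with an interaction of -0.46 ± 0.09 (adjusted p = 0.000303).

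In KO cells fewer members were called. Of the 29 members, 10 rose and 0 fell, with a median of 0.22 against -0.01 over all rows. Of all rows 4.66% were called higher and 4.64% lower, 9.30% in all. At an unadjusted p below 0.05, 20 members (and 28.0% of all rows) were called by limma. The 10 were Fasn, Acaca, Acly and Scd2 of the fatty acid genes, Mvd, Lss and Lbr of the sterol enzymes, Srebf1 and Srebf2, and Stard4. All 10 were also called with equal totals and with quantile scaling, which called 15 each. The shares of all rows called under those scalings are not given here. In 7 members all KO libraries with agonist were above all with vehicle, against 2.55% of all rows, and in 0 all were below, against 1.97%.

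The KO count depended on which libraries entered. It was 2 without KO agonist library 1 (Fasn and Acaca), 3 without library 4, 6 without library 5, 5 without library 6 and 16 without library 2. The share of all rows called moved in the same order of size, at 2.46%, 3.71%, 4.16%, 3.82% and 16.0%. Without KO vehicle library 6 and KO agonist library 2 together, 18 members were called, 17 of them higher, beside 22.7% of all rows.

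**Figure D2:**
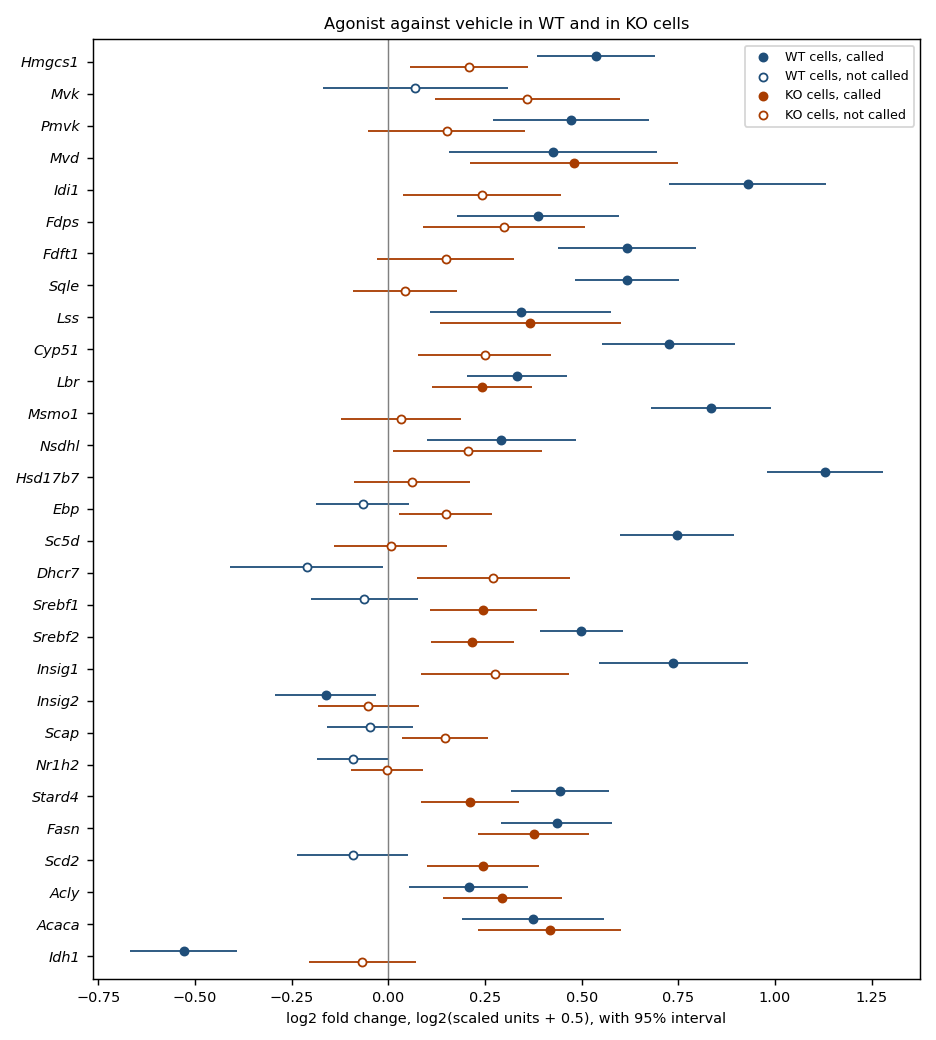
Log2 fold change of agonist against vehicle for the 29 members in WT cells (blue) and KO cells (orange), with 95% intervals from limma; filled points are called at an adjusted p below 0.05. In WT cells 20 members are called higher and 2 lower; in KO cells the 10 called are all higher, and Hsd17b7, Msmo1, Sc5d and Sqle lie near 0 there.

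Tested directly, the agonist effects of the lines differed for 17 of the 29 members. The interaction was positive for 11 and negative for 6, beside 21.5% and 19.6% of all rows (41.1% called in all), and the members' median was 0.09 against -0.02. The split followed the steps of the pathway only in part: 6 of 11 squalene and sterol ring enzymes were positive and 2 negative. Of 6 mevalonate enzymes 2 were positive and 0 negative, and of 6 regulators 2 were positive and 2 negative. The carrier Stard4 was positive, and of 5 fatty acid genes 0 were positive and 2 negative. With equal totals the split was 5 positive and 10 negative, and with quantile scaling 7 and 8. The median of all rows was itself -0.28 and -0.07 there. Shares of all rows called are given for the deposited factors only, so the larger negative counts are not read as a result about the members. The 5 positive under all 3 scalings were Hsd17b7, Idi1, Msmo1, Sc5d and Sqle, and the 6 negative ones (Dhcr7, Ebp, Idh1, Scap, Scd2 and Srebf1) were negative under all 3. Column totals were 1.18 times higher in WT cells with agonist than under vehicle, and equal totals moved the median interaction of all rows from -0.02 to -0.28. The members' median minus that of all rows was 0.10 under the deposited factors, 0.09 with equal totals and 0.00 with quantile scaling.

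**Figure D3:**
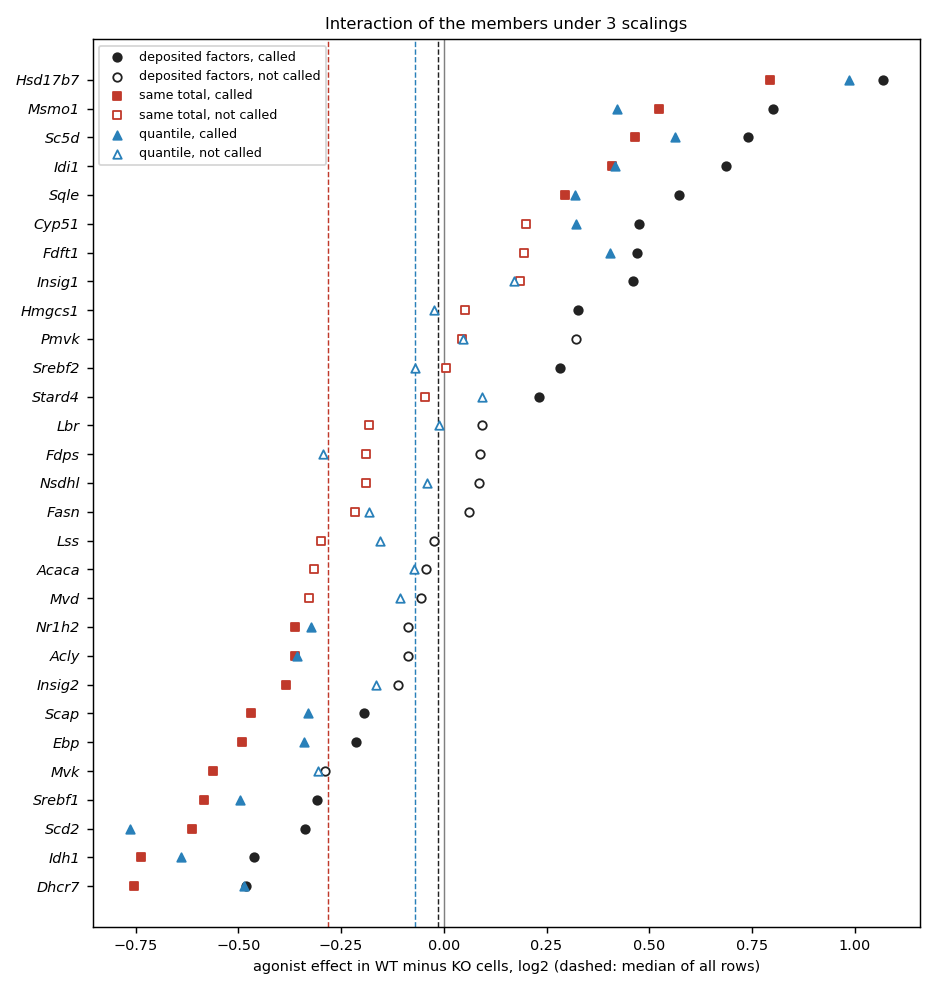
Agonist effect in WT minus KO cells (log2) for each member under the deposited factors (circles), equal totals (squares) and quantile scaling (triangles), filled where called; dashed lines are the medians of all rows. Hmgcs1, Srebf2 and Stard4 are called under the deposited factors and change sign under another scaling, while Hsd17b7, Msmo1, Sc5d, Idi1 and Sqle stay positive and called.

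Without agonist, the KO line already had lower levels of most members. Under vehicle 19 were lower in KO than in WT cells and 3 were higher, beside 23.9% and 23.9% of all rows (47.8% called in all), with a median of -0.21 against 0.00. Of the 19, 16 were lower under all 3 scalings, and Acly, Fasn and Nsdhl were not. The 3 higher ones were higher under all 3. Idi1 had the largest difference, at -0.94 ± 0.10 (adjusted p = 2.56e-08, limma), and its mean in KO cells was 52.2% of that in WT cells. Fdps followed at -0.56 ± 0.10, with 327 to 449 scaled units (median 380) in WT and 222 to 291 (median 262) in KO cells, and Srebf2 at -0.55 ± 0.05 (adjusted p = 4.30e-09, limma). Neither gene's libraries overlapped between the lines. In all, 13 members had every KO library below every WT library and 2 (Scd2 and Idh1) had every one above, against 14.1% and 13.2% of all rows.

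Among the genes with the largest WT response, Msmo1 was the exception under vehicle. It stood at -0.06 ± 0.08 (95% interval -0.22 to 0.09) and was not called, and Mvd, Lbr, Ebp, Dhcr7, Insig2 and Acaca were not called either. Higher in KO cells were Srebf1 (0.30 ± 0.07), Scd2 (0.27 ± 0.07) and Idh1 (0.18 ± 0.07). The median KO to WT change over all rows of a chromosome ran from -0.33 on chromosome 6, which holds no member, to 0.17 on chromosome 8 (Mvd and Msmo1); it was -0.18 on chromosome 13 (Hmgcs1 and Idi1). The part of this in the members' differences was not tested. Each genotype is 1 line, so the loss of Gpr39 and other differences between the lines cannot be told apart.

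With agonist in both lines, 17 members were lower and 4 higher in KO cells, beside 32.1% and 32.0% of all rows (64.1% called in all), with a median of -0.32 against 0.01. Idi1 (-1.62 ± 0.10), Hsd17b7 (-1.48 ± 0.07) and Fdft1 (-1.01 ± 0.09) were lowest relative to WT cells, and their KO means were 32.3%, 35.2% and 49.2% of the WT means. In 12 members every KO library was below every WT library and in 4 every one was above, against 24.6% and 21.7% of all rows. The 4 higher were Dhcr7 (0.69 ± 0.10), Idh1 (0.65 ± 0.07), Scd2 (0.61 ± 0.07) and Srebf1 (0.61 ± 0.07). Equal totals gave 13 lower and 10 higher, quantile scaling 13 and 8. The median of all rows moved to 0.28 and 0.07 there. Shares of all rows called are given for the deposited factors only, so the larger higher counts are not read as a result about the members. Fasn, at -0.23 ± 0.07 under the deposited factors, turned to 0.05 with equal totals and 0.00 with quantile scaling, and Lbr turned from -0.17 ± 0.06 to 0.12 with equal totals, none of these called. In all, 15 members and 15.0% of all rows were lower in KO cells both under vehicle and with agonist, in comparisons that share no library. Of the 15, 12 were lower in both under all 3 scalings, and Fasn, Lss and Nsdhl were not.

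**Figure D4:**
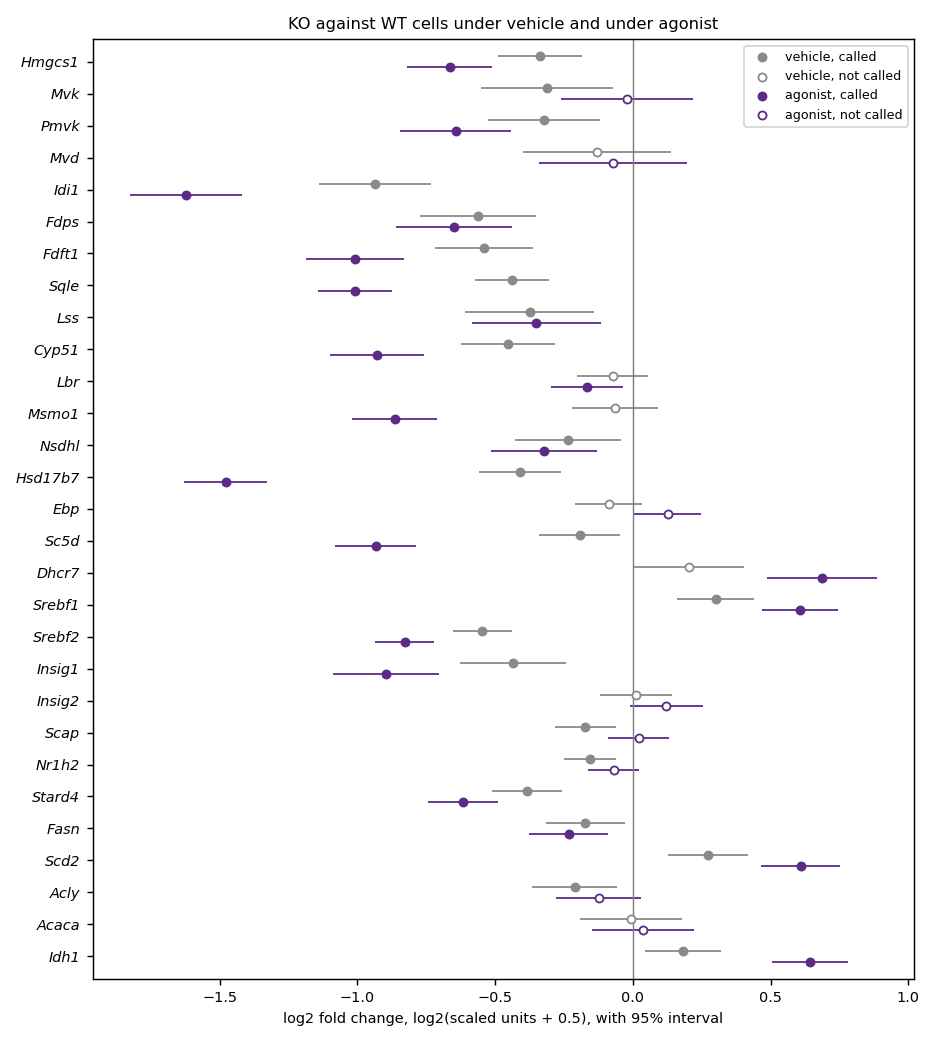
Log2 fold change of KO against WT cells under vehicle (grey) and with agonist (purple) for the 29 members, with 95% intervals from limma; filled points are called under the deposited factors. Most members lie below 0, further so with agonist for Idi1, Hsd17b7 and Msmo1, while Srebf1, Scd2 and Idh1 lie above 0; the negative values of Fasn and Lbr with agonist turn positive with equal totals.

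Members moved together among libraries of 1 group as well. The libraries numbered 1 had the most members above their group's mean in every group: 24 of 29 in WT vehicle, 27 in WT agonist, 23 in KO vehicle and 27 in KO agonist, where 47.4% to 53.9% of all rows were above. WT vehicle library 5, WT agonist library 4 and KO agonist library 2 were at the other end, with 3, 4 and 3 members above. With the number 1 libraries of all groups left out, 22 members were called in WT cells, 14 in the interaction and 3 in KO cells, beside 53.8%, 37.5% and 2.15% of all rows.

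**Figure D5:**
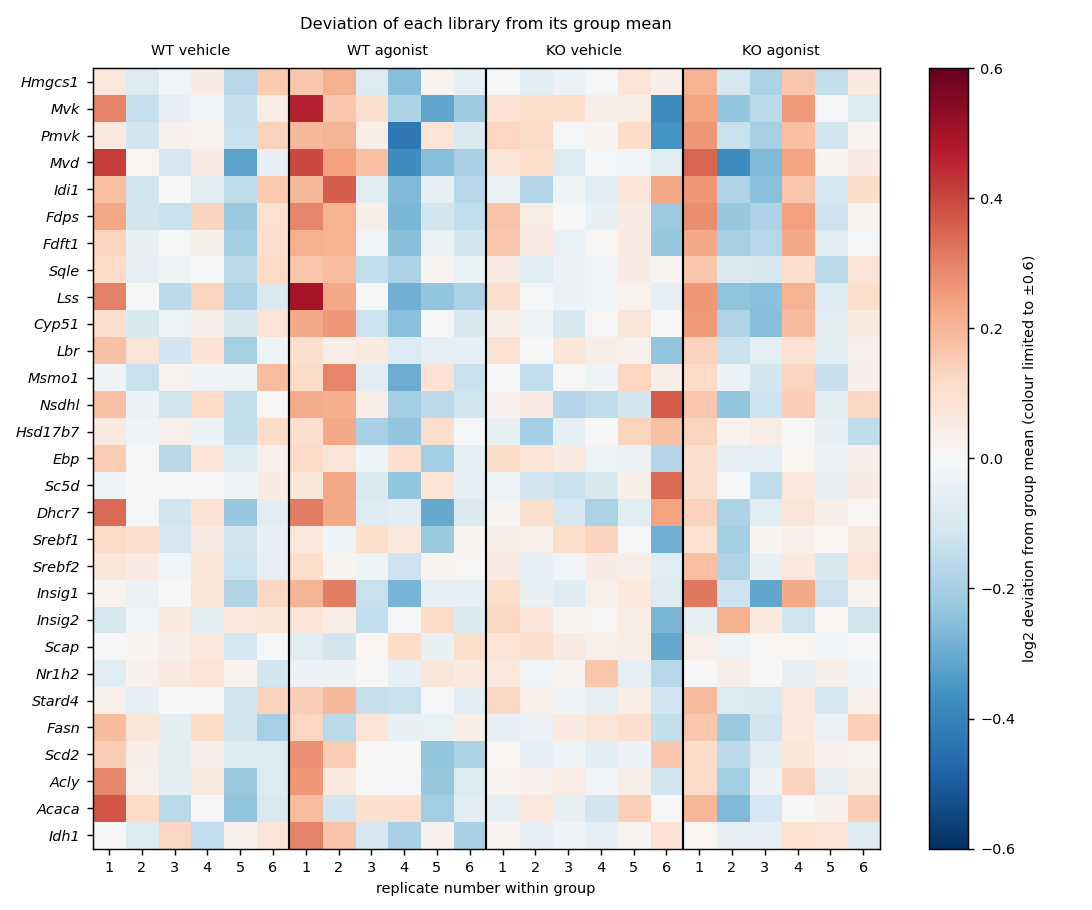
Deviation of each library from its group mean (log2, colour limited to ±0.6) for the 29 members by rows and the 24 libraries by columns. Red columns, such as the number 1 libraries, are libraries in which most members were above the group mean; KO vehicle library 6 is mixed, with Mvk, Pmvk and Scap low and Nsdhl and Sc5d high.

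Of 48 further genes of these pathways listed, 39 had a row of their own and were tested. In WT cells 11 rose and 10 fell, which is 28.2% and 25.6% of them beside 28.6% each of all rows. In KO cells 6 rose and 2 fell, beside 4.66% and 4.64% of all rows, and 7 interactions were positive and 7 negative, 17.9% of the genes each beside 21.5% and 19.6%. In WT cells Mylip, a ubiquitin ligase gene switched on by the LXR receptors, ranged from 56.9 to 80.7 scaled units (median 66.9) under vehicle and from 19.1 to 27.7 (median 24.0) with agonist. It fell by 1.502 on the log2 scale (± 0.10, adjusted p = 1.21e-12, limma), with an interaction of -1.18 ± 0.14. Acsl4, which activates polyunsaturated fatty acids, ranged from 26.2 to 29.5 (median 28.5) and from 43.7 to 53.9 (median 47.9) and rose by 0.75 ± 0.06 (adjusted p = 2.38e-10, limma). In KO cells with agonist, Lpin1, a phosphatidate phosphatase, rose by 0.45 ± 0.08 (adjusted p = 0.00704, limma), and Erlin1, an endoplasmic reticulum protein tied to sterol control, fell by 0.23 (± 0.05, adjusted p = 0.0112).

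Between the lines under vehicle, 13 of these 39 genes were higher and 10 lower in KO cells, and with agonist 15 and 11. Of all rows 23.9% were higher and 23.9% lower under vehicle, and 32.0% and 32.1% with agonist. Under vehicle Erlin1 was higher in KO cells by 0.72 ± 0.05 and Mbtps1, the protease that makes the first cut in SREBP precursors, by 0.30 ± 0.03. Slc25a1, the mitochondrial citrate carrier, was lower by -0.40 ± 0.05. With agonist Gpam, which starts glycerolipid synthesis, was higher in KO cells by 0.62 ± 0.04 (adjusted p = 3.33e-12, limma) and Mylip by 1.297 ± 0.097.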

How the data were processed

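Libraries were grouped by genotype and treatment from the sample titles, 6 per group. The authors deposited 1 table of a length-normalized signal per gene and library; STAR 2.7.8a, DESeq2, DESeq and GRCm39 are named without roles, per the submitters' processing notes. Each deposited signal times gene length was a multiple of 0.1, and a factor per library (0.754 to 1.46) turned at least 99.8% of values into whole reads within 0.05. The deposited table also gives gene length, another number. Counting and strand settings are not given in the sources used here, so overlapping genes may share reads.

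The table was multiplied by 92.1 so that column totals averaged 1000000 (scaled units), keeping the factors between libraries as the authors set them. Rows with a mean of at least 1 were kept (11557 of 12224). All 24 libraries entered 1 model in limma 3.58.1 (R 4.3.3) on log2(scaled units + 0.5), a term per group, trend and robust settings, 20 residual degrees of freedom, two-sided, with Benjamini-Hochberg adjustment over all rows. The script was tested on simulated data. No 2 libraries agreed within sampling noise. Reads without molecular identifiers are not independent molecules.

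The members, lists, motifs and tests were chosen with earlier results of these data known. Library ranges are given for members called in the interaction and for the 3 largest changes among called members elsewhere, and for other pathway genes at most the 4 smallest adjusted p-values; some genes taken by this rule are not reported here. Ranges of Mvd, Acaca and Fasn fall under the rule for KO cells. Alternatives were pseudocounts 0.1 and 2, other filters and scalings, moderation, groups alone, a replicate block, libraries left out, and, chosen after seeing the data, voom on recovered reads and leaving out the number 1 libraries.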

Additional observations from a re-analysis of the deposited data

Results flagged for a closer look

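In 9 of 116 sets of 6 libraries (29 members in 4 groups), the highest or lowest library lay far from the rest, with a gap to the next library above Dixon's critical value. For a single set, chance gives about 1 in 20. The 116 sets share the same 24 libraries and are not independent, so that rate is no measure for the 9. All but 1 of the 9 outlying values came from KO vehicle library 6. That library was the lowest for Mvk (17.8 scaled units), Pmvk (136.6), Lbr (40.1), Insig2 (38.1) and Scap (57.8), and the highest for Nsdhl (68.3), Sc5d (89.9) and Scd2 (981.6). KO agonist library 2 was the lowest for Srebf1 (124.7).

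The test of the difference between the agonist effects in WT and KO cells passed for 17 members, as given in the report. Positive values were those of Hsd17b7 (1.07), Msmo1 (0.80), Sc5d (0.74), Idi1 (0.69), Sqle (0.57), Cyp51 (0.48), Fdft1 (0.47), Insig1 (0.46), Hmgcs1 (0.33), Srebf2 (0.28) and Stard4 (0.23). Negative values were those of Dhcr7 (-0.48), Idh1 (-0.46), Scd2 (-0.34), Srebf1 (-0.31), Ebp (-0.21) and Scap (-0.19).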

How the results depend on the processing

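Of 5336 comparisons of a member's value with its reported one, 5003 kept sign and side of the threshold, 159 lost a call, 97 gained one, 11 reversed, and 66 changed sign while called in neither setting. Median ratio scaling left all 145 values on their side of the threshold. Under the deposited factors the median change of all rows already lay between -0.02 and 0.01 in every contrast. Median ratio scaling thus had little to move and is no independent check of those factors. Equal totals and quantile scaling moved values most among the scalings. The members' median in WT cells became 0.15 with equal totals and 0.23 with quantile scaling, that of the interaction -0.189 and -0.0714, and that of KO against WT cells with agonist -0.0355 and -0.182. Signs reversed for Acly in WT cells (-0.0328 and -0.0220), for the interactions of Stard4 (-0.0448, equal totals), Hmgcs1 (-0.0233) and Srebf2 (-0.0712, both quantile), and with agonist in KO against WT cells for Mvk (0.26) and Lbr (0.12) with equal totals, Nr1h2 (0.22 and 0.17) and Fasn (0.0540 and 0.0046). The KO agonist count of 10 became 18 without KO vehicle library 6 and KO agonist library 2, and 3 without the number 1 libraries. With single libraries left out, counts ran from 2 to 16 in KO cells, 21 to 24 in WT cells, 14 to 18 for the interaction, 19 to 22 under vehicle and 20 to 23 with agonist between the lines. Shares of all rows beside these counts are given only for some KO agonist libraries, in the results above.

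Whether replicate numbers pair the samples is not given in the sources used here. Over all rows, 10 of 36 same-numbered pairs correlated above 0.1 (range -0.31 to 0.49) and 8 matched their own number best. The members themselves were high in the number 1 library of every group, so this check does not settle pairing for them. A replicate block gave 23 calls in WT cells, 15 in KO cells, 16 interactions, and 23 and 22 between the lines. The planned count tests on recovered reads (edgeR and DESeq2) were not run, and voom on those reads was run in their place. Voom gave 22, 11, 17, 22 and 21 in that order. The shares of all rows called with the block and with voom are not given here. A change in these counts thus cannot be told from a general gain or loss of calls. The lowest mean of a member in WT vehicle cells was 24.9 scaled units, against a filter of 1. The cause of these changes was not tested.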

Other observations

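Members that shared a row with other genes were kept out of the counts. The joined row of Acat2, the cytosolic thiolase at the head of the pathway, and Acat3 had a level, in scaled units (SD, n = 6), of 104 ± 19.8 with vehicle and 128 ± 33.7 with agonist in the WT line, and of 82.4 ± 10.5 and 121 ± 21.8 in the KO line. It rose in KO cells by 0.54 ± 0.15 (adjusted p = 0.0261, limma), and 0.27 ± 0.15 in WT cells did not pass (adjusted p = 0.117). The row of Vps51, Tm7sf2 and Pola2 stood at 67.8 ± 3.25 and 66.6 ± 2.19 in WT cells and at 72.7 ± 3.64 and 79.5 ± 3.71 in KO cells, and rose in KO cells by 0.13 ± 0.04 (adjusted p = 0.0496, limma). Reads of the joined genes cannot be told apart.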
